A study of Caenorhabditis elegans with 3 samples.

Results

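The peaks described here lay at promoters of protein-coding genes in a ChIP-seq experiment on RPC-1, the largest subunit of RNA polymerase III, in Caenorhabditis elegans. The animals were whole young adult hermaphrodites of strain YL517, which carry rpc-1 joined at its C-terminal end to GFP and a FLAG tag, and chromatin was recovered with an anti-GFP antibody. All 3 samples were biological replicates of this 1 group, with no untagged, mutant or treated group beside them. Each sample was a mixture of every tissue of the animal, so a peak in a few cells and a weak peak in all cells cannot be told apart. The members were chosen by measured values and position together. From the list called on the pooled replicates the 5000 nuclear peaks with the highest signal were taken, out of 29975 nuclear peaks. Those whose summit, the highest point of the peak, lay within 500 bp of the annotated start (TSS) of a protein-coding gene and over 500 bp from every small RNA gene were kept. Small RNA genes here are those for tRNA, rRNA, snRNA, snoRNA, the signal recognition particle RNA, RNase P, RNase MRP and Y RNA, with tRNA pseudogenes. The rule gave 1785 promoter peaks. Of the other strongest peaks, 1137 lay at small RNA genes and 2078 lay away from both small RNA genes and promoters.

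RNA polymerase III makes short, untranslated RNAs, chiefly tRNAs and 5S rRNA, whereas protein-coding genes are read by RNA polymerase II. At a tRNA gene, the factor TFIIIC binds a pair of short words inside the gene, the A box and the B box, and brings in TFIIIB and then the polymerase. Many C. elegans messenger RNAs receive a short leader by trans-splicing, so an annotated TSS is often the trans-splice site and transcription starts some way upstream of it. As further background, the X chromosome of this species holds few of the genes used in the germ line and is largely silent there.

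The promoter peaks are described in 2 groups. The first is the 157 that were overlapped by a peak of the deposited list of reproducible peaks, which were kept by how well ranks held between replicates, and the second is the other 1628. Sequences from 4 peaks of the first group are printed as examples that hold both the A box and the B box core on 1 strand. F59C12.4 and srd-66, stronger than pqn-94, hold the pair too, with core starts 53 and 55 bp apart, and are not printed. The printed ones have core starts 44 or 45 bp apart. The second sms-3 peak printed here is the one with a signal of 3055, at pooled rank 241. Each is 101 bases of WBcel235, the assembly also called ce11, and capitals mark the A box core TGGCNNAGT, nearer the 5′ end, and the B box core GTTCGANNC.
sms-3, first peak, chrIII:1599109-1599209, plus strand: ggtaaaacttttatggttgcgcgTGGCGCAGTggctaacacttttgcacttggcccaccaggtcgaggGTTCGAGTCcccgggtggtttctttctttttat
sms-3, second peak, chrIII:1601555-1601655, minus strand: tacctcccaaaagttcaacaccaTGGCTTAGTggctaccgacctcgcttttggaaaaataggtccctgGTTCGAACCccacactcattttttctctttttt
ZK380.6, chrX:1654423-1654523, plus strand: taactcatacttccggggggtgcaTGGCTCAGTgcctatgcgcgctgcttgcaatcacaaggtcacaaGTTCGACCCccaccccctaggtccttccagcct
pqn-94, chrV:20279482-20279582, plus strand: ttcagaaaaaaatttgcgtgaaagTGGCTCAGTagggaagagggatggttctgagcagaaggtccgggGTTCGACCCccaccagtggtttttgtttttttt
The second group is shown by the 101 bases centred on the summits at 2 ribosomal protein genes, on the strand of the gene, since these are its strongest peaks at such genes. Neither stretch held any of the 8 motif words searched here, on either strand. Among weaker peaks of this group, the stretch at rpl-23 held an A box core and that at rps-28 the word CCGCCC. The stretch at eef-1G held a run of T on the other strand, and that at rpl-5 held no word.
rps-3A, chrIII:4475617-4475717, plus strand: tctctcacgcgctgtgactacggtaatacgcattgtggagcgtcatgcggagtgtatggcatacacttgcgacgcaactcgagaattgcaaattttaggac
rpl-38, chrV:15511753-15511853, plus strand: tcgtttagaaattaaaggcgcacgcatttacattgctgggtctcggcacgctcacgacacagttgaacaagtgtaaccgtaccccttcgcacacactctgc

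The deposited lists give a signal to each peak, which is the authors' own value from their peak caller and was used only to rank peaks within a list, with rank 1 the strongest. Promoter peaks ran from a signal of 4280 at rank 78 to 22.7 at rank 4999, with a median signal of 35.9 and a median rank of 3263. Most were therefore weak members of the strongest 5000, and 89.1% had the width of 456 bp that was the most frequent in the list. The median rank was 670 for peaks at small RNA genes and 2475 for peaks away from both. Read numbers are not part of the lists, so the depth behind a signal is unknown. At the lower edge, the last peak kept by rank had a signal of 22.71 and the next one 22.71 too, so the limit falls within an even range of signals. The 3 strongest peaks just below it that met the position rule were at eri-7, Y22D7AL.16 and D2045.5, at ranks 5003, 5005 and 5007. The 3 weakest members, at Y45G5AM.9, Y39E4B.10 and F49C5.9, had ranks 4996, 4998 and 4999. Peaks at unc-2, slrp-1 and Y25C1A.6 were left out at 501, 502 and 503 bp from a TSS. As a check on the label, 6.27% of promoter peaks had a non-coding RNA gene of another annotated kind within 200 bp, and 1.01% had a 21U-RNA gene there. The first of these shares was 37.5% of the 8 promoter peaks at ranks 1 to 500. It was 14.3% of the 35 at ranks 501 to 1000 and 4.08% of the 49 at ranks 1001 to 1500. A peak 284 bp from the TSS of the ribosomal protein gene rpl-24 was left out because a small RNA gene lay 418 bp away.

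The strongest promoter peak lay 268 bp downstream of the TSS of Y53G8AL.4, which encodes a protein with an Apple domain. Its interval was chrIII:3248726-3249788, its pooled signal was 4280, and it ranked 68, 85 and 99 in replicates 1, 2 and 3. Among the next were 3 peaks at sms-3, a putative phosphatidylcholine:ceramide cholinephosphotransferase, a kind of enzyme that makes sphingomyelin. The first sms-3 peak had a signal of 3907 and ranks of 80, 125 and 151 in replicates 1, 2 and 3. The other two sms-3 peaks had signals of 3717 and 3055 and fell on the same replicate peaks, ranked 155, 159 and 134, so they are not independent observations.
W08A12.2, a neuropeptide-like gene, had a signal of 3666 and ranks of 148, 195 and 126. ZK816.3 on X, a gene with no described product, had 3082 and ranks of 237, 241 and 222. The α-tubulin gene tba-7 had 3078 and ranks of 284, 218 and 216. In each of these peaks the 3 replicates stayed within the strongest 300 of their own lists.
C05G5.5 on X, whose product resembles the metalloprotease TIKI, had a signal of 2156 and ranks of 437, 397 and 383. The remaining members of the strongest 20 had signals between 739 and 1567. They lay at W01D2.3, rsf-1, T13C5.6, Y65B4A.2, F19B2.7, Y43F8B.17, nhr-41, T07D10.1, hst-3.1, ZK380.6, Y43F8B.2 and srh-284. Of these, rsf-1 encodes a Ras association domain protein, nhr-41 a nuclear receptor, hst-3.1 a sulfotransferase and srh-284 a chemoreceptor of class H. None of the strongest 20 lay at a gene of the ribosome, the proteasome or another housekeeping list used here. A non-coding RNA gene of another annotated kind lay within 200 bp of the summits at Y53G8AL.4, ZK816.3, tba-7, W01D2.3 and T13C5.6.

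The deposited list of reproducible peaks has 1914 entries. One of them overlapped 157 of the 1785 promoter peaks, or 8.80%, against 41.6% of all 5000 strongest peaks. The same share was 46.1% for peaks away from both and 85.0% for peaks at small RNA genes. Strength differed along with reproducibility, and the median pooled rank was 1321 for the 157 promoter peaks with a reproducible peak and 3398.5 for the other 1628. The 1628 had no signal above 133.8, which was that of a peak at nol-10, a NUC153 domain gene with ranks of 1625, 1667 and 1590.

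Ranks in the separate replicates were described peak by peak, taking for each promoter peak the strongest replicate peak that overlapped it by at least 1 bp. The pooled list holds the reads of all 3 replicates, so this is not an independent repeat. The replicates' own lists differed in length, at 24159, 24539 and 29975 nuclear peaks in replicates 1, 2 and 3, and were not made equal. The longest list, that of replicate 3, had the most peaks that could overlap. Of the 1785 promoter peaks, 76 had no overlapping peak in replicate 1, 109 had none in replicate 2 and 18 had none in replicate 3. Median ranks of those found were 3485, 3787 and 3289, a mean of 3520 ± 251 (SD, n = 3 replicates). A peak among the strongest 5000 of the replicate's own list overlapped 68.3% of promoter peaks in replicate 1, 62.0% in replicate 2 and 75.6% in replicate 3. All 3 replicates gave such a peak at 682 promoter peaks, or 38.2%, against 59.1% of all 5000 strongest peaks.
The 2 groups differed in how their ranks held, which the choice by reproducibility fixes in part. Taken across peaks, which share their libraries, the Spearman correlation of replicate ranks for the 155 reproducible promoter peaks with a match in each replicate was 0.942, 0.940 and 0.932 for the replicate pairs 1-2, 1-3 and 2-3. For the 1432 others with such matches, it was 0.232, 0.227 and 0.280 in the same order. The reproducible ones covered pooled ranks 78 to 4216, and the others ranks 1525 to 4999, a narrower range on a log scale. The median SD of log10 rank over the 3 replicates was 0.0393 for reproducible promoter peaks and 0.177 for the others. For peaks away from both it was 0.0357 and 0.188 in the same order. A peak among the strongest 5000 of every replicate overlapped 96.8% and 32.6% of the 2 groups of promoter peaks. The shares were 94.8% and 27.5% for peaks away from both, with and without a reproducible peak.

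**Figure D1:**
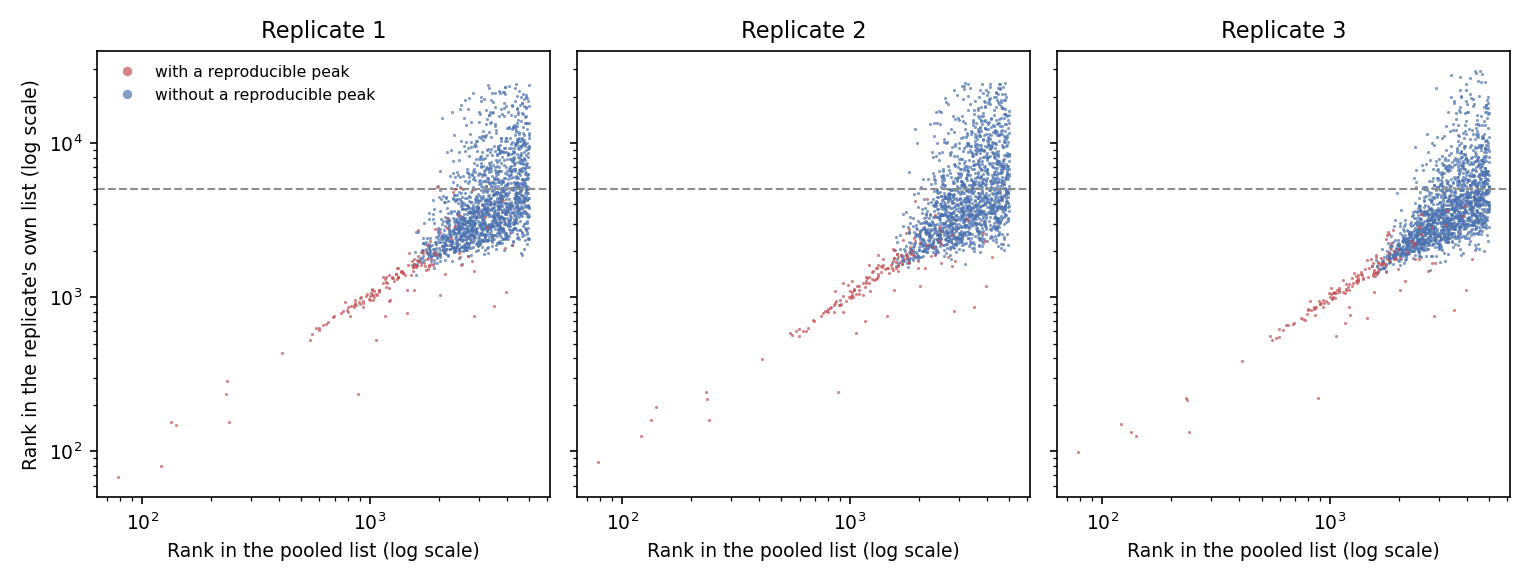
Rank of each promoter peak in the pooled list (x axis, log scale) against the rank of the strongest overlapping peak in the replicate's own list (y axis, log scale), 1 panel per replicate. Red points are promoter peaks with a reproducible peak, blue points those without one, and the dashed line marks rank 5000. Red points lie in a narrow band, and blue points begin near pooled rank 1525 and spread upward across the dashed line in each replicate.

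Some named peaks show the spread. The peak at klp-16, which encodes a kinesin, had pooled rank 3728 and ranks of 2245, 22056 and 26639 in replicates 1, 2 and 3. The peak at pgm-2, a phosphoglucomutase gene, had ranks of 3131, 3050 and 29255. At Y69A2AR.1, a Brix domain gene, the ranks were 21131, 2126 and 2223. Replicate 1 stood apart from the other two at klp-16 and Y69A2AR.1, and replicate 3 at pgm-2. The ranks of 26639 and 29255 lie past the end of the shorter lists of replicates 1 and 2, where such a peak would be missing.
The most even ranks belonged to a peak 482 bp downstream of a TSS of snt-6, a C2 domain gene, at 1455, 1464 and 1456. The ribosomal protein gene rps-7 followed, with ranks of 3166, 3205 and 3171 and no reproducible peak. Among the strongest peaks absent from a replicate were Y43F8C.7, without a peak in replicate 1, and the translation initiation factor gene eif-3.E, without one in replicate 2. The ranks of eif-3.E in replicates 1 and 3 were 2246 and 2951.

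Promoter peaks entered the pooled list at a particular range of ranks. Among the peaks away from small RNA genes, the share at promoters was 15.7%, 14.3% and 13.4% in the first 3 bands of 500 ranks. Of the nuclear positions away from small RNA genes, 22.2% meet the position rule, and each of these 3 shares was below that. The share was then 29.9% at ranks 1501 to 2000, 53.8% at ranks 2001 to 2500 and 64.0% at ranks 2501 to 3000, and 48.8% in the last band. The bands of each replicate's own list gave 15.4 ± 0.765%, 14.7 ± 1.30% and 14.4 ± 1.46% in the first 3 bands (SD, n = 3). They gave 28.8 ± 4.97% and 51.9 ± 6.34% in the next 2 bands, 55.4 ± 2.00% in the sixth and 45.5 ± 3.16% in the last. The step between ranks 1000 and 2500 was larger than the spread between replicates, and every replicate showed it.

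**Figure D2:**
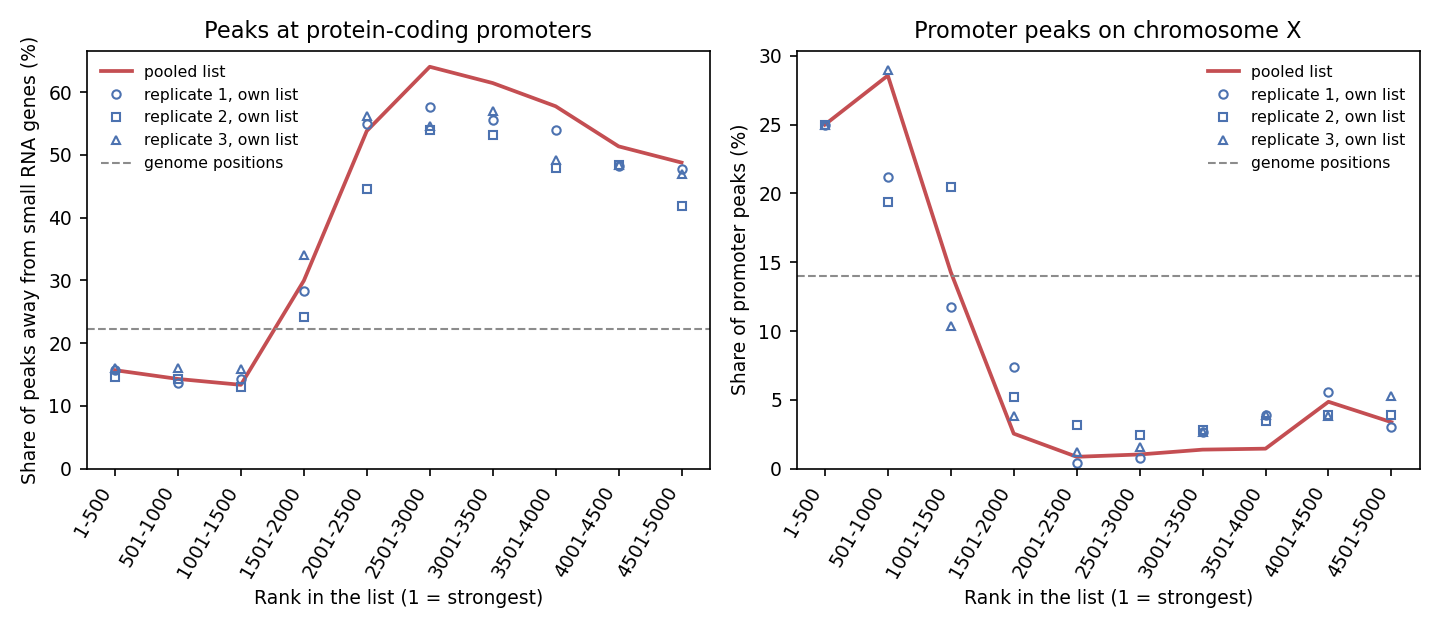
Left, the share of peaks away from small RNA genes that lay at protein-coding promoters, and right, the share of promoter peaks that lay on chromosome X, in bands of 500 ranks (x axis, strongest at the left). Red lines are the pooled list, open symbols the same bands of each replicate's own list, and the dashed lines the shares of genome positions, 22.2% and 14.01%. The share at promoters is under the line for the first 1500 ranks and far over it from rank 2001. The share on X is over its line for the first 1000 ranks, on both sides of it at ranks 1001 to 1500, and under it in every list from rank 1501.

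The chromosome was not used by the rule. Of the 1785 promoter peaks, 55 lay on X, or 3.08% (exact 95% interval 2.33 to 3.99%), whereas X holds 14.01% of the positions that could meet the rule and 13.7% of the protein-coding genes. Intervals on shares here cover the counting of peaks or genes only. The rule applied to each replicate's own list placed 3.73%, 4.31% and 4% of promoter peaks on X in replicates 1, 2 and 3, a mean of 4.01 ± 0.292%. Peaks away from both lay on X in 17.4% of cases, where X holds 17.6% of the positions away from small RNA genes, and peaks at small RNA genes in 29.1%.
The share on X differed between the 2 groups. Reproducible promoter peaks lay on X in 26 of 157 cases, or 16.6% (11.1 to 23.3%), and the others in 29 of 1628 cases, or 1.78% (1.20 to 2.55%). Peaks away from both divided the same way, with 26.0% (23.3 to 28.9%) on X for those with a reproducible peak and 9.99% (8.30 to 11.9%) for those without, so a lower share on X without a reproducible peak was not limited to promoters. In the replicates' own lists the shares were 16.4 ± 0.341% for those with a reproducible peak and 2.61 ± 0.218% for those without. Both kinds occurred over part of the range of ranks. At ranks 1501 to 2500, 5 of 51 with a reproducible peak and 0 of 300 without one lay on X, and a count of 0 allows a share of up to 1.00% by a limit of 3 counts and 1.22% by the exact interval. Within those ranks the 2 sets still differed in strength, with medians of the replicate ranks averaging 1788 for those with a reproducible peak and 2402 for those without.

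A total of 2120 protein-coding genes had at least 1 promoter peak at a TSS, which is 10.6% of the 19971 nuclear protein-coding genes. Most had 1 peak, 129 had 2, 4 had 3 and 1 had 4. The gene with 4 was egl-30, a G protein α subunit gene, and those with 3 were sms-3, eya-1, irld-50 and C08G5.7. Reproducible peaks marked 139 genes, or 0.696%, and the others marked 1987 genes, or 9.95%. Of the 139, 6 genes (4.32%) were also marked by the others, against that 9.95% of all protein-coding genes. Of the genes on X, 0.733% had a reproducible promoter peak and 1.06% had another promoter peak. Of the genes on the autosomes, the shares were 0.690% and 11.4%. Among the autosomes the share of genes with any promoter peak was highest on chromosome III, at 16.7%, and lowest on V, at 7.95%.
The replicates' own lists gave 1690, 1531 and 1700 promoter peaks and marked 9.68%, 8.71% and 9.72% of protein-coding genes. Of the 2120 genes of the pooled list, 752 (35.5%) were also marked in all 3 own lists and 102 (4.81%) in none. Replicate 1 marked 67.0% of the pooled genes, replicate 2 marked 60.8% and replicate 3 marked 74.4%.

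Position round the TSS also differed between the groups. The median offset of the summit from the nearest TSS was -164 bp for all promoter peaks, negative being upstream, and 61.4% lay within 300 bp upstream. In the replicates' own lists the median offset was -157, -148 and -153 bp. The 157 reproducible promoter peaks had quartiles of -320 and 282 bp, with 26.8% (20.01 to 34.4%) within 300 bp upstream, and 55.4% of them had a summit inside an annotated protein-coding gene. The 1628 others had quartiles of -266 and -58.8 bp, with 64.7% within 300 bp upstream and 26.0% inside a gene. At ranks 1501 to 2500 the share within 300 bp upstream was 33.3% of the 51 with a reproducible peak and 73.0% of the 300 without one.
Divergent promoters held 24.9% of promoter peaks, 22.7 ± 0.557% in the replicates' own lists. Here they are those with a TSS on each strand within 500 bp of the summit, the plus-strand TSS at the higher coordinate. The summit itself need not lie between the TSS positions. Points set 150 bp upstream of each TSS were divergent by the same definition in 10.7% of 26283 cases. The share was 5.10% (2.23 to 9.79%) for reproducible promoter peaks and 26.8% for the others. An example is the peak between rfc-4, a subunit of the clamp loader of DNA replication, and eef-1A.1, which encodes elongation factor 1α. It had a signal of 102 and ranks of 2009, 1638 and 1726 in replicates 1, 2 and 3, and it had no reproducible peak.

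**Figure D3:**
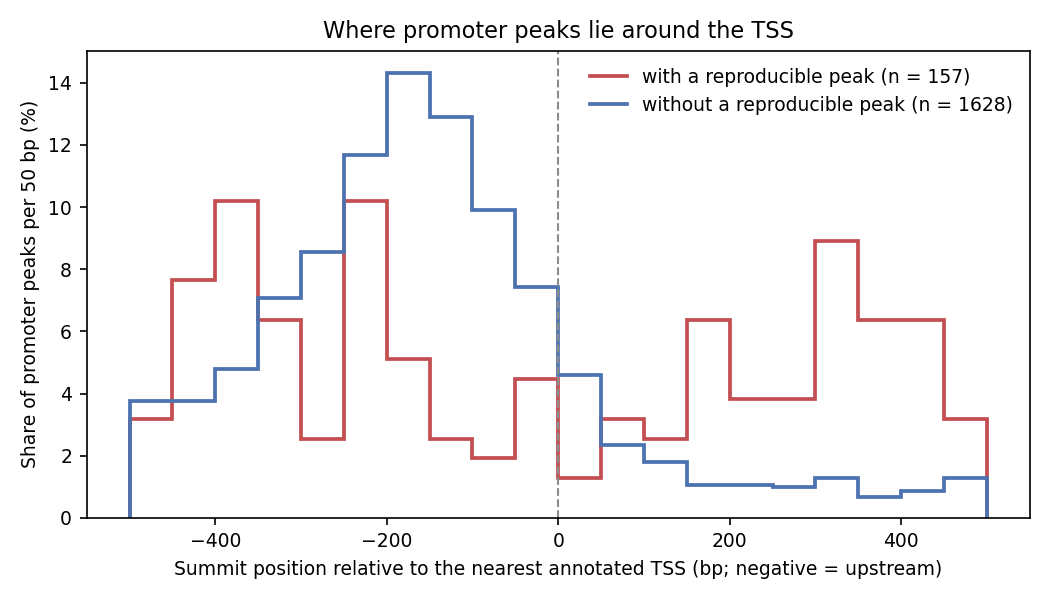
Position of the summit relative to the nearest annotated TSS (x axis, bp, negative upstream) against the share of promoter peaks in each 50 bp (y axis, %). The red line is the 157 with a reproducible peak and the blue line the 1628 without one. The blue line has a single hump between 0 and 300 bp upstream, and the red line is uneven on both sides of the TSS.

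Genes of several housekeeping lists were marked far more often than protein-coding genes as a whole. Of the ribosomal protein genes, 55 of 78 had a promoter peak (70.5%), against 10.6% of all protein-coding genes. This share rested on the TSS distance, and with a TSS within 250 bp it was 14.1%, against 6.61% of all protein-coding genes. With the strongest 2500 peaks it was 35.9%, against 2.67%. Of the 57 peaks counted for the list, 22 lay nearest to the TSS of another gene. In the replicates' own lists it was 61.5%, 59.0% and 66.7% of these genes, against 9.37 ± 0.573% of all protein-coding genes. Only 4 of the 55 rested on a reproducible peak. They were rpl-15, rpl-3, rpl-35 and rpl-18A, all of the large ribosomal subunit, with pooled signals of 233, 210.5, 183 and 122, and the peak counted for rpl-18A lay nearer to the TSS of Y17G9B.5. The ranks of rpl-3 in the 3 replicates were 1338, 1313 and 1322, and those of rpl-35 were 1344, 1364 and 1326. The small subunit gene rps-3A had a signal of 126, ranks of 1959, 2031 and 1366, and no reproducible peak.
Translation factor genes had a promoter peak in 25 of 41 cases (61.0%), and 45.5 ± 8.57% in the replicates' own lists. The strongest of them after eef-1A.1 was at eif-3.C, a subunit of initiation factor 3, with a signal of 87.4 and ranks of 1840, 2630 and 1865. At eef-1G, an elongation factor 1γ gene, the ranks were 5251, 3834 and 1734. Each replicate's own list marked a smaller share of the ribosomal protein and of the translation factor genes than the pooled list did.
Respiratory chain and ATP synthase genes were marked in 21 of 39 cases (53.8%, and 40.2 ± 2.96% in the own lists). The cytochrome c oxidase gene cox-5A had a signal of 107 and ranks of 1976, 1882 and 1612. Proteasome genes were marked in 17 of 33 cases (51.5%, and 43.4 ± 6.31%). The peak at rpn-3, a regulatory particle subunit, had a signal of 78.2 and ranks of 2746, 2309 and 1758 and was also within 500 bp of the TSS of the chaperone gene hsp-110.
Splicing factor genes were marked in 20 of 47 cases (42.6%, and 34.0 ± 10.6%). Their strongest peak was at rsp-2, a serine and arginine rich splicing factor, with a signal of 71.2 and ranks of 1815, 2683 and 2045. Genes for aminoacyl-tRNA synthetases, which charge tRNAs, were marked in 11 of 32 cases (34.4%, and 24.0 ± 6.51%). The reproducible one was at pars-2, a proline tRNA ligase, with a signal of 367 and ranks of 1028, 1264 and 971. Chaperone genes were marked in 20 of 62 cases (32.3%, and 29.0 ± 2.79%). Among them hsp-90 had a signal of 88.4 and ranks of 2077, 1755 and 1853. With a TSS within 250 bp the shares were 34.1% for translation factors, 30.8% for the respiratory chain, 33.3% for the proteasome, 29.8% for splicing factors, 18.8% for the synthetases and 17.7% for chaperones, against 6.61% of all protein-coding genes. With the strongest 2500 peaks these 6 lists gave 6.25 to 19.5%, against 2.67%. Peaks nearest to a gene outside the list were 6 of 26 for translation factors, 7 of 21 for the respiratory chain, 6 of 18 for the proteasome, 4 of 20 for splicing factors, 3 of 11 for the synthetases and 11 of 24 for chaperones.

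**Figure D4:**
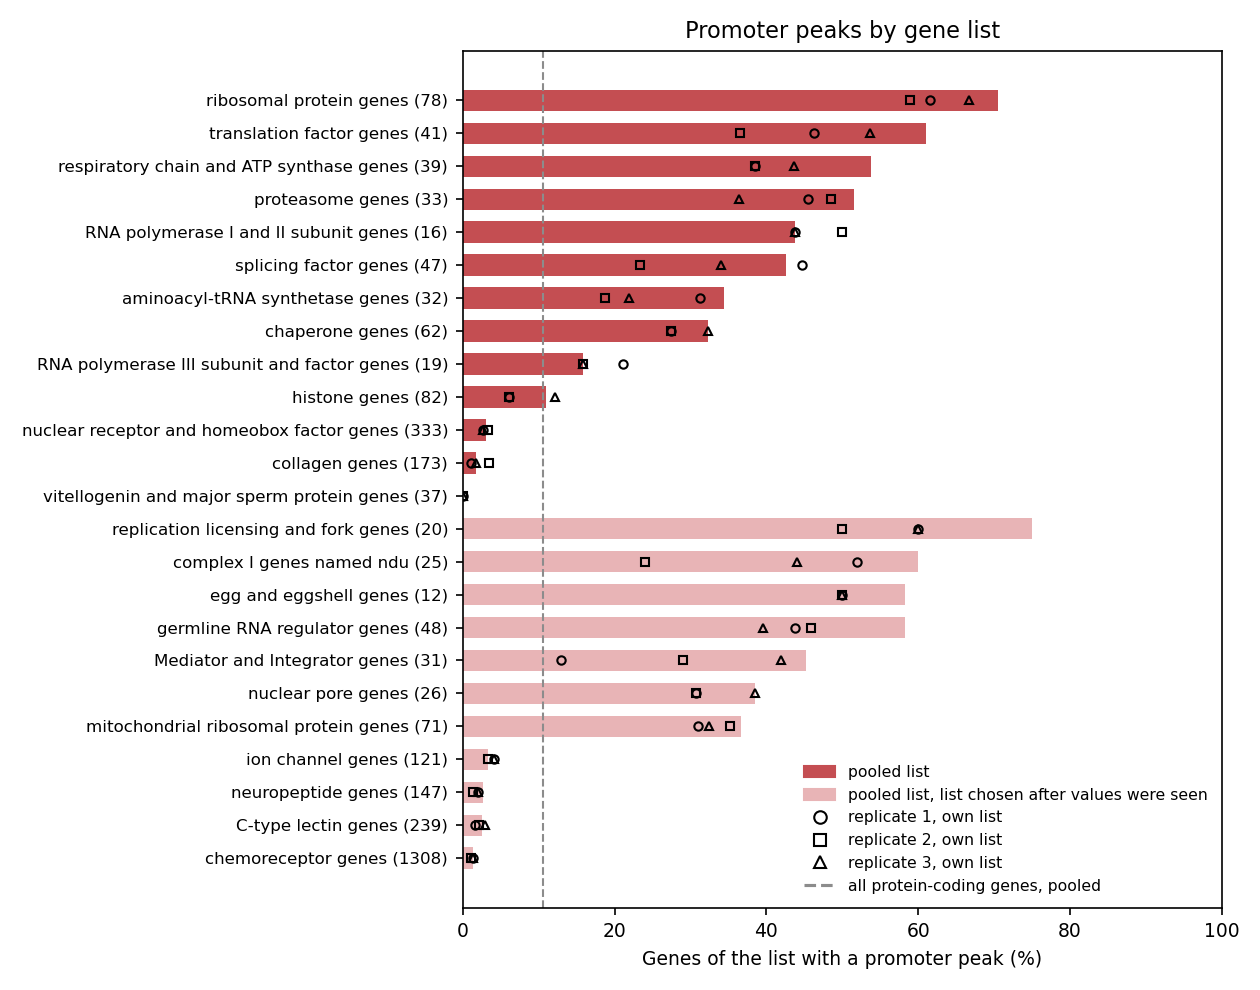
Share of the genes of each list (rows, with the number of genes in brackets) that had a promoter peak (x axis, %). Bars are the pooled list, paler where the list was chosen after values were seen, open symbols the 3 replicates' own lists, and the dashed line all protein-coding genes at 10.6%. Lists of housekeeping genes reach far past the line, and lists of collagen, chemoreceptor and nuclear receptor genes stay short of it in the pooled list and in every replicate.

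Genes for the polymerases form small lists. Subunits of RNA polymerases I and II, some of which RNA polymerase III shares, were marked in 7 of 16 cases (43.8%, 19.8 to 70.1%). The strongest peak was at rpb-12, nearer to the TSS of aly-2, with a signal of 86.1 and ranks of 1961, 1942 and 2076. The marked rpb-6 and rpb-8 are annotated as subunits of RNA polymerases I, II and III, so this list and the next do not separate the polymerases. Subunits and factors of RNA polymerase III were marked in 3 of 19 cases (15.8%, 3.38 to 39.6%), against 10.6% of all protein-coding genes, with own-list shares of 21.1%, 15.8% and 15.8%. The intervals of the 2 lists overlapped, and their order changed with the rank limit, at 6.25% for polymerases I and II and 10.5% for polymerase III with the strongest 2500 peaks, and 62.5% and 57.9% in that order with the strongest 10000. The 3 genes were snpc-3.4 and snpc-1.4, of the complex that activates snRNA genes, and rpac-19, which RNA polymerases I and III share. At rpac-19 the ranks were 2046, 13314 and 1983. The tagged gene itself, rpc-1, had no pooled peak within 500 bp of its TSS or over the gene at chrIV:7160135-7165748.
Histone genes were marked in 9 of 82 cases (10.98%, and 8.13 ± 3.52% in the own lists), a share within replicate spread of that over all genes. Among them were the replacement histones htz-1, an H2A.Z, and his-74, an H3.3, with signals of 47.6 and 42.1, and the peak counted for htz-1 lay nearer to the TSS of wapl-1.
Several large families were marked rarely. Nuclear receptor and homeobox genes had a promoter peak in 10 of 333 cases (3.00%, and 2.90 ± 0.347%). A reproducible peak marked 3 of these genes, 0.901% of the list, against 0.696% of all protein-coding genes. The peaks at nhr-41 and nhr-59 had signals of 1123 and 308, above the 233 of rpl-15, the strongest at a ribosomal protein gene. Collagen genes were marked in 3 of 173 cases (1.73%), and the reproducible one, at col-40, had a signal of 599.8 and ranks of 755, 844 and 943. The peak counted for col-38 lay nearer to the TSS of rpl-5. No gene with a vit or msp symbol, for vitellogenin or major sperm protein, was marked, 0 of 37, which allows a share of up to 8.11% by a limit of 3 counts and 9.49% by the exact interval. Outside that list, 5 promoter peaks were nearest to genes whose annotated product is a major sperm protein, as at F57A10.2 with a signal of 123 and W08E3.4 with 63.3. The peak at F57A10.2 was also within 500 bp of a TSS of haf-3. That at W08E3.4 was also counted for the splicing factor gene snr-2. All genes with that product were not counted, so the share of them marked is unknown.

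Motif words were counted on both strands of the 300 bases centred on each summit, and the background was 300 bases centred 150 bp upstream of each of 26283 TSS positions. The B box core GTTCGANNC occurred at 5.27% of promoter peaks (4.28 to 6.41%) and at 1.37% of all promoters. In the replicates' own lists the share was 5.79 ± 0.475%. It was 37.6% (30.0 to 45.7%) of the 157 with a reproducible peak and 2.15% (1.502 to 2.98%) of the 1628 others. Reproducible peaks away from promoters and small RNA genes held it in 36.2% of cases, within the interval of the reproducible promoter peaks. Within ranks 1501 to 2500 the core occurred at 17 of 51 with a reproducible peak and at 11 of 300 without one.
The A box core TGGCNNAGT occurred at 6.05% of promoter peaks and 2.20% of all promoters, with 30.6% of the reproducible ones and 3.69% of the others. Peaks away from both held it in 19.1% of cases, and the reproducible ones among them in 29.5%. The TATA word TATAAA was at 33.4% of promoter peaks and 37.6% of all promoters. The E box CACGTG was at 4.65% and 5.82%, the Sp1-like word CCGCCC at 8.29% and 8.05%, and the repeat GAGAGAGA at 2.63% and 3.86%. A run of T, TTTTTT, was at 83.4% and 82.2%, and the splice acceptor word TTTCAG at 46.8% and 50.7%. Median GC content was 34.7% at promoter peaks and 33.7% at all promoters, with 39.7% in the reproducible ones and 34.3% in the others. With the background centred on the TSS instead, TATAAA was at 33.4%, CACGTG at 6.24%, CCGCCC at 6.96%, GAGAGAGA at 2.81%, TTTTTT at 74.6% and TTTCAG at 54.1% of all promoters, and their median GC content was 36%. The differences in TATAAA and in GC content thus depended on where the background was centred, while the B box core was at 1.89% and the A box core at 2.21% of all promoters.

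**Figure D5:**
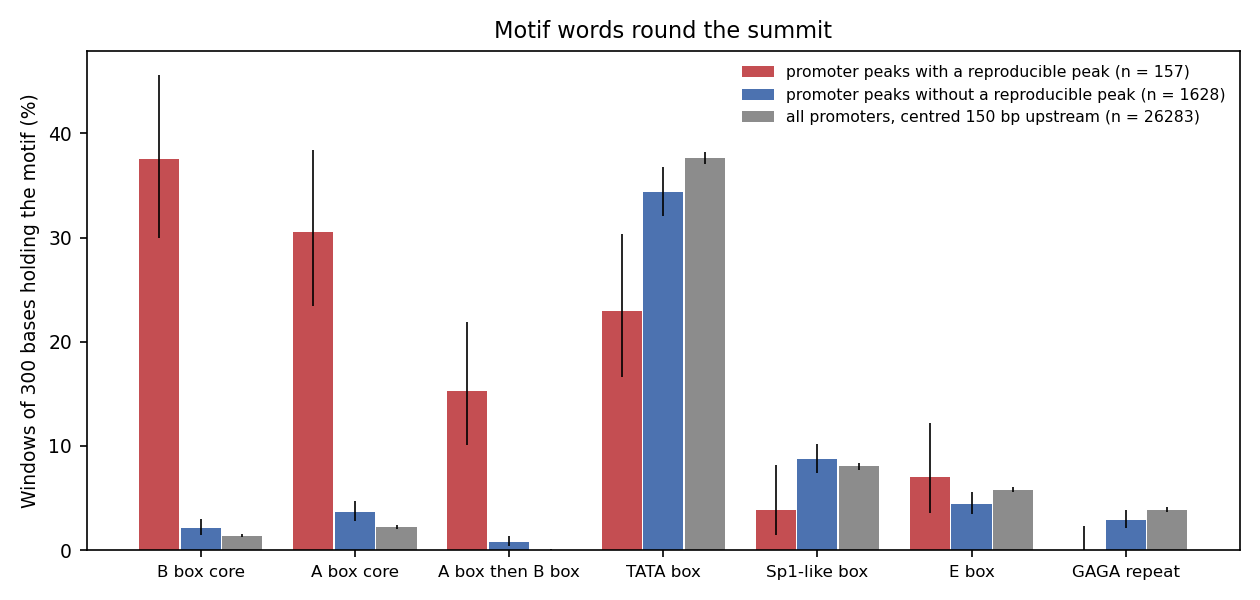
Share of windows of 300 bases that held each motif word (y axis, %, with exact 95% intervals), for promoter peaks with a reproducible peak (red), promoter peaks without one (blue) and all promoters (grey). The B box core, the A box core and the pair stand high in red, at 37.6%, 30.6% and 15.3%, and are at most 3.69% in blue.

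An A box core followed on the same strand by a B box core within 100 bp was found at 37 promoter peaks (2.07%) and at 0.0380% of all promoters, and 24 of the 37 were reproducible. The distance between the starts of the 2 cores was 43 to 45 bp in 30 of the 37, with a range of 39 to 56 bp. Peaks away from both held the pair in 213 of 2078 cases (10.3%), at a median distance of 44 bp. With a reproducible peak, the share was 15.4% for peaks away from both and 15.3% for promoter peaks. Annotated tRNA pseudogenes searched the same way held the pair in 43.1% of 209 cases, with a median distance of 44.5 bp and quartiles of 44 and 45 bp. Annotated tRNA genes held it in 7.84% of 612 cases, at a median of 54 bp, since the A box word as spelled here was in only 10.5% of them. The pair lay on the strand of the nearest protein-coding gene in 23 of the 37, and 24 of the 37 summits were inside a gene body.
The strongest peaks with the pair were the sms-3 peaks with signals of 3907 and 3055, followed by ZK380.6 with a signal of 919 and ranks of 750, 705 and 684. The sms-3 peak with a signal of 3717 held a B box core but no A box core. F59C12.4 on X had 630.4 and ranks of 806, 833 and 820. The chemoreceptor gene srd-66 had 556 and ranks of 885, 883 and 865. Further down were dmd-3, a doublesex family gene, with 324 and ranks of 1037, 1175 and 1104, and aat-8, an amino acid transporter gene, with 455 and ranks of 911, 1010 and 965. The ranks of some weaker peaks with the pair were less even, as at W05B2.2, a Kunitz inhibitor gene, where the peak of rank 3356 had ranks of 4400, 22845 and 2972.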

How the data were processed

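RPC-1 peaks were taken from the deposited lists of 3 biological replicates, of the replicates pooled and of reproducible peaks, on ce11. The deposited signal of each peak is the value the authors' peak caller gave it, read from its place in the narrowPeak layout, since the lists have no header line, and it was used only for ranks within a list. No source used here gives the aligner, the caller or its settings, and the control named in the deposited file lists and the ce10 lists were not analysed here. Mitochondrial peaks, 25 of the 30000 pooled ones, were left out. The deposited file lists name the pooled list as a source of the reproducible list, but its ce11 intervals were not found there, so the 2 were matched by an overlap of at least 1 bp.

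Genes, TSS positions and sequences came from RefSeq on WBcel235, with 26592 TSS positions. Summits were compared with them in Python 3.11.15 with numpy 2.4.6 and scipy 1.17.1, and the selection was tested on simulated data. The error is the SD over the rule applied to each replicate's own list, or an exact Clopper-Pearson 95% interval for a share of peaks or genes. No p-value was computed, since there is 1 group and the members were chosen by their signal. The members and lists were chosen with earlier results of these data known, and 11 of the 24 gene lists after their values were seen. Genes were named as the 20 strongest members, up to 4 per list, those at the edges of the rule, and those with the most and least even replicate ranks. A few others with paired box words or several peaks were named after their values were seen. Alternatives changed the rank limit, both distances, the TSS set, the treatment of shared intervals and of other non-coding RNA genes, the matching of peaks and the replicates used.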

Additional observations from a re-analysis of the deposited data

How the results depend on the processing

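Most values followed the rank limit and the TSS distance, which choose the members. With the strongest 2500 peaks there were 443 promoter peaks, with a mean median replicate rank of 2113, 87.8% of them among the strongest 5000 of every replicate, 32.3% reproducible, a median offset of -183 bp, a B box core at 15.3% and 5.42% on X (0% of those without a reproducible peak), and 7.36% of all listed genes were marked, against 20.3% by the main rule. With the strongest 10000 there were 3625, with values of 4811, 21.5%, 4.55%, -130 bp, 3.78% and 5.19% (4.65%) in the same order, 18.01% at divergent promoters and 28.8% of listed genes marked. With a TSS within 250 bp there were 1156, of which 35.4% were among the strongest 5000 of every replicate, 5.62% were reproducible, 15.9% divergent and 3.03% held the B box core. The median offset was then -122 bp, 9.78% of listed genes were marked, and 1.19% of those without a reproducible peak lay on X. With 1000 bp the share in every replicate was 41.02%, 14.8% were reproducible, 28.5% divergent, 8.10% held the core, 5.14% lay on X (2.82% without a reproducible peak) and 24.6% of listed genes were marked. Keeping away from every non-coding RNA gene but 21U-RNA genes left 16.5% of listed genes marked. Matching peaks by summits within 150 bp put 30.8% among the strongest 5000 of every replicate. Leaving out each replicate in turn gave 46.2 to 53.0% for that share and 3387 to 3636 for the median rank. With a replicate fewer to meet, the share can only stay at or rise above the main value of 38.2%. The distance to small RNA genes, the outermost TSS and 1 summit per interval moved none of the shares past its interval, nor the median rank or offset past the replicate SD, and the outermost TSS left 1688 promoter peaks. Of 117 shares of single gene lists under 9 settings, 91 stayed within the exact interval of the main value, and 26 did not, among them ribosomal protein genes at 14.1% with a TSS within 250 bp. No paired analysis was possible because all samples form 1 group.

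The lists hold no read numbers, so depth limits on single peaks could not be given, and without control values enrichment over control was not measured here. All values rest on 3 replicates of 1 strain. Annotated TSS positions set the offsets, and peaks that share an interval or a replicate peak are not independent.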

Other observations

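Further gene lists, chosen after values were seen, are given as description only. Genes for the licensing and forks of DNA replication had a promoter peak in 15 of 20 cases (75%), against 10.6% of all protein-coding genes. In the own lists of replicates 1, 2 and 3 the list's share was 60%, 50% and 60%. The helicase subunit gene mcm-2 had a signal of 79.7 and ranks of 3018, 2161 and 1756 in replicates 1, 2 and 3. The sliding clamp gene pcn-1 had 55.2 and ranks of 3129, 2804 and 2132. None of the peaks at these genes was reproducible by the deposited list.

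Regulators of RNA in the germ line and in RNA interference were marked in 28 of 48 cases (58.3%, and 43.1 ± 3.18% in the own lists, SD, n = 3). Among them gld-3, a regulator of germ cell fate, had a signal of 66.2 and ranks of 2389, 2338 and 2757, and the P granule helicase gene glh-2 had 62.8 and ranks of 3104, 2628 and 2215. Eggshell and egg activation genes were marked in 7 of 12 cases (58.3%, and 50% in each own list). They included perm-1 with a signal of 60.9 and ranks of 2413, 2774 and 2409, and egg-1 with 56.1 and ranks of 2725, 2229 and 2932. Complex I genes with an ndu symbol were marked in 15 of 25 cases (60%, and 40 ± 14.4% in the own lists). Those with a nuo symbol are in the respiratory chain list. Mediator and Integrator genes were marked in 14 of 31 cases (45.2%). Nuclear pore genes were marked in 10 of 26 (38.5%, and 33.3 ± 4.44%) and mitochondrial ribosomal protein genes in 26 of 71 (36.6%, and 32.9 ± 2.15%). The share over all protein-coding genes was 10.6%, and 9.37 ± 0.573% in the own lists. The Mediator and Integrator share was 12.9%, 29.0% and 41.9% in replicates 1, 2 and 3, the widest spread of any list. Peaks nearest to a gene outside the list were 2 of 15 for replication, 6 of 27 for germ line regulators and 0 of 7 for eggshell genes. They were 5 of 16 for complex I, 3 of 16 for Mediator and Integrator, 2 of 10 for nuclear pore and 9 of 27 for mitochondrial ribosomal protein genes.

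Chemoreceptor genes were marked in 17 of 1308 cases (1.30%), against 10.6% of all protein-coding genes. A reproducible peak marked 0.612% of them, against 0.696% of all protein-coding genes, as at srh-284, srd-66, str-268 and srd-68, with signals of 739, 556, 487 and 411. Ion channel genes of the twk, acr and lgc families were marked in 4 of 121 cases (3.31%, against 10.6% of all protein-coding genes). A reproducible peak marked 3 of these genes, 2.48% of the list, against 0.696% of all protein-coding genes. The potassium channel gene twk-22 on X had a signal of 549 and ranks of 961, 1094 and 769. C-type lectin genes were marked in 6 of 239 cases (2.51%), and a reproducible peak marked 0.837% of the list. Genes with a flp, nlp or ins symbol, for neuropeptides, were marked in 4 of 147 (2.72%). That list leaves out most of the 9 promoter peaks nearest to genes annotated as Neuropeptide-Like Protein, as at W08A12.2 with a signal of 3666. Of the 9, 5 were reproducible, against 8.80% of all promoter peaks. All genes with that product were not counted, so the share of them marked is unknown. Every promoter peak among the strongest 1500 was reproducible, in these families and outside them.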
